A study of Arabidopsis thaliana with 6 samples.

Results

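The glutathione S-transferase genes of *Arabidopsis thaliana* were followed in whole seedlings inoculated with the plant growth-promoting bacterium *Priestia megaterium* YC4-R4 (Treated) and in seedlings with mock inoculation (Control). Their members were taken as the genes of the deposited count table whose short description names a glutathione S-transferase or a glutathione transferase, with 1 matching locus set aside and not analysed here, which gave 41 of the 19616 genes. All 6 samples were wild-type Col-0 plants, 13 days after germination and 7 days after treatment (7 DAT), germinated on ½ MS plates and moved to a vermiculite soil mix. Control pots received the 0.45% NaCl carrier without bacteria, and Treated pots the same carrier with the bacteria. Each group had 3 RNA-Seq libraries from ground whole plants, which the study calls biological replicates, and p-values measure the spread among these samples. The comparison asked which transferase genes differed between inoculated and mock seedlings before a phenotype could be seen.

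Glutathione S-transferases join the tripeptide glutathione to electrophilic compounds, which makes them more soluble and lets transporters of the ABCC family move them into the vacuole. In plants the large tau and phi classes do most of this work on foreign compounds and on defense metabolites, and some members carry ligands instead of changing them. The theta class acts on peroxides, the lambda class works as thiol transferases, and the zeta enzyme GSTZ1 is the maleylacetoacetate isomerase of tyrosine breakdown. The promoters of several transferase genes are known for the as-1 element, whose core TGACG is bound by TGA transcription factors.

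Thus, the 41 members were 24 tau, 11 phi, 3 theta, 2 lambda and 1 zeta gene, and 26 of them lie in 8 tandem clusters (members less than 20 kb apart). Transferase genes of the table outside the search words, such as *GSTU19* and *GSTL3*, are not in these counts. The treated seedlings had more transcript of a set of tau genes and of the phi genes *GSTF11* and *GSTF14*. The abundant phi gene *GSTF2* was lower, a call that held with 1 library left out only without treated replicate 2. The summed level of the members differed little. Among the 41 members, 10 rose and 1 fell at an adjusted p of at most 0.05, where 5.10% of all genes tested were higher and 4.52% lower. Of the 10, 3 also reached the 1.5-fold limit that the study used for differentially expressed genes (DEGs), where 1.73% of all genes tested were higher and 1.54% lower. The differences were small, with log2 fold changes between -0.56 and 0.93 over the whole family.

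The upstream sequence of 6 of the 10 genes that rose holds the letters TGACG within 250 bases before the annotated gene start, and these sites are shown because the same letters are the core of the as-1 element. Positions refer to the TAIR10.1 assembly of RefSeq, sequences are written on the strand of the gene, and capitals mark TGACG or its reverse complement CGTCA. *GSTU5* (chr2:12625908-12625952, minus strand), *GSTU27* (chr3:15660661-15660705, plus strand), *GSTU3* (chr2:12629721-12629765, minus strand), *GSTU7* (chr2:12618924-12618980, minus strand), *GSTU25* (chr1:5871917-5871961, plus strand) and *GSTU24* (chr1:5869354-5869398, plus strand) have the windows below. *GSTF8* (chr2:19556113-19556157, plus strand), the gene for a chloroplast and cytosol enzyme whose promoter is a classic as-1 case, is given for comparison. Whether the site in its window is that known element was not tested. The annotated *GSTF8* gene overlaps *AT2G47720* on the same strand over 516 bp.
GSTU5: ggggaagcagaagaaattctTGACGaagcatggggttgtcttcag
GSTU27: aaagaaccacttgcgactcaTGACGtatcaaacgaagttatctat
GSTU3: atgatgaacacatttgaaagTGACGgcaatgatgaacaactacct
GSTU7: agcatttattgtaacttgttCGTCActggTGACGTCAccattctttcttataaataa
GSTU25: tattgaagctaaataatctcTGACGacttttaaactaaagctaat
GSTU24: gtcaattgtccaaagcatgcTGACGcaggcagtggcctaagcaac
GSTF8: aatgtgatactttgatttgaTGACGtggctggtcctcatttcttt

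The letters begin at 142 bases before the start in *GSTU5* (position -142), at -89 in *GSTU27*, at -105 in *GSTU3*, at -87 in *GSTU25*, at -169 in *GSTU24* and at -193 in *GSTF8*. In *GSTU7* they occur at -61, -52 and -49, the last 2 of them on opposite strands of one palindrome, TGACGTCA. In the *GSTU5* window the site is part of TTGACG, so it also contains TTGAC, the core of the W-box. Searched on both strands from 250 bases before to 50 bases after the start, TGACG was found in 17 of the 41 members (41.5%) and in 23.8% of the 19342 genes searched. It was found in 12 of the 24 tau and 3 of the 11 phi genes. Of the 17 members with it 6 rose, and of the 24 without it 4 rose.

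The other motifs searched in the same windows were TTGAC, in 24 members (58.5%) and 51.1% of all genes, and CACGTG, the G-box, in 2 members (4.88%) and 8.72% of all genes. GCCGCC, the GCC-box of ethylene response factors, was found in 4 members (9.76%) and 2.64% of all genes. *GSTU8*, *GSTF11*, *GSTU10* and *GSTF14* rose without TGACG in this window. A match is only a run of letters and says nothing of whether a factor was bound.

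The libraries held 10804936 to 20040520 counts in the Control group and 15292377 to 21904205 in the Treated group, and their TMM normalization factors were between 0.971 and 1.02. Values are given as TMM-normalized CPM, the share of a library's counts scaled to one common total, and tests are edgeR's quasi-likelihood test over 19615 genes with Benjamini-Hochberg adjustment. A gene is said to rise or fall where its adjusted p was at most 0.05, and to be a DEG where it also changed at least 1.5-fold. All 41 members were tested, the lowest count of any of them being 8, and 39 had a CPM of at least 1 in all 6 libraries. *GSTF5* entered the table through treated libraries only, since its CPM was under 1 in each control library.

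The 3 DEGs were higher in treated seedlings and 0 members were lower DEGs. At an unadjusted p under 0.05, 16 members were higher and 2 lower, where 2369 and 2202 of the 19615 genes tested were. The levels of the treated libraries were all above those of the control libraries in 14 members and all below in 2, where 14.5% and 13.8% of all genes tested showed the same. The log2 fold change was above 0 in 29 members and below 0 in 12, with a median of 0.17, whereas the median over all genes tested was -0.005. Leaving out 1 library moved these counts: without control replicate 2 only *GSTU8* and *GSTU5* rose, and without control replicate 2 or control replicate 3 no member reached both limits.

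**Figure D1:**
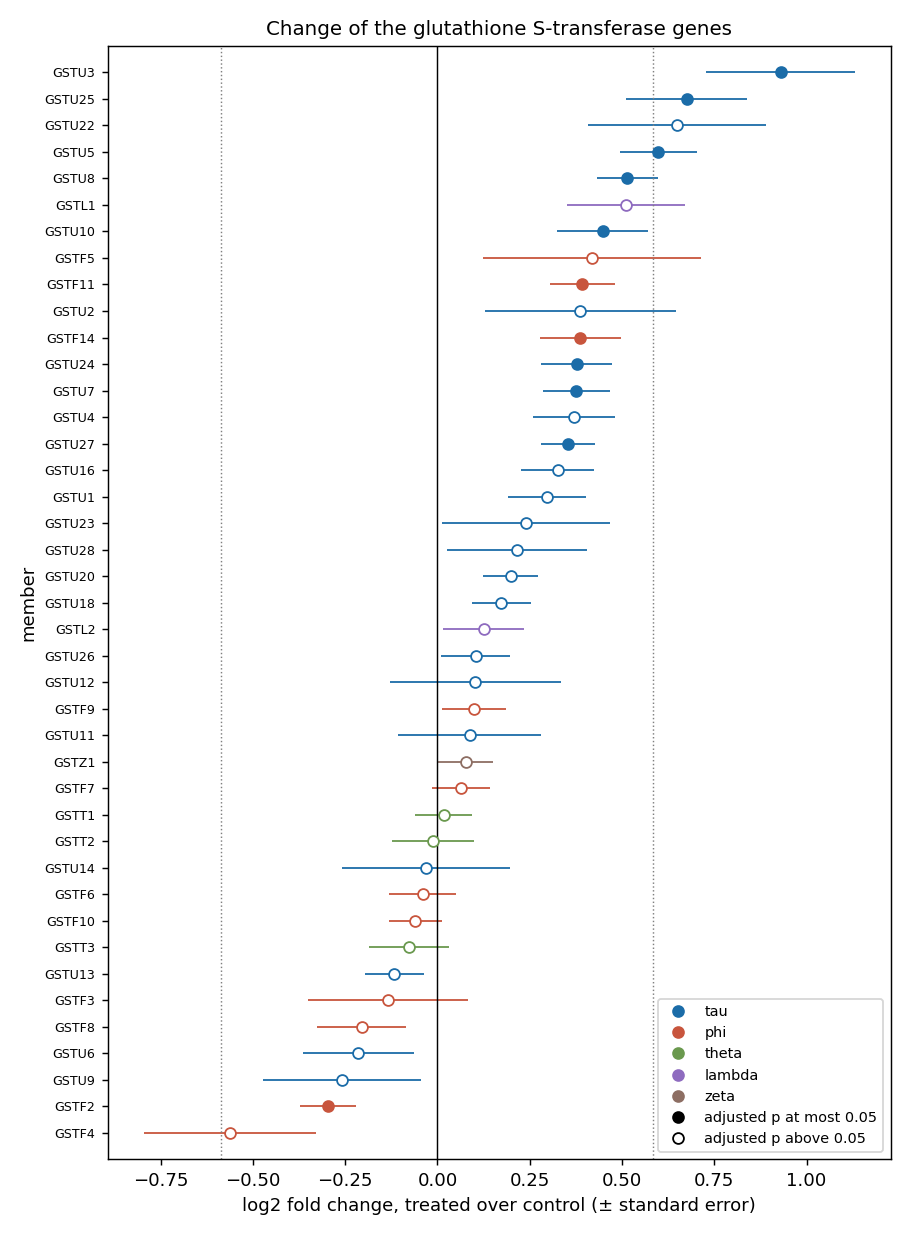
Log2 fold change of Treated over Control with its standard error for each of the 41 members, in order of size and colored by class. Filled points have an adjusted p of at most 0.05, and the dotted lines stand at a fold of 1.5: 10 of the filled points lie to the right of 0 and *GSTF2* alone to the left.

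Regarding the tau class, 8 of its 24 members rose, 3 of them as DEGs, and none fell. Over all genes tested, 5.10% rose, 4.52% fell and 1.73% were higher DEGs. With an unadjusted p under 0.05, 13 were higher and 0 lower, where 2369 and 2202 of the 19615 genes tested were. A log2 fold change above 0 was found in 20 of the 24, with a class median of 0.31. *GSTU5* (AT2G29450, chr2:12624403-12625790, minus strand, 2 coding exons) was the DEG with the highest level. Its CPM was 158.9, 125.5 and 127.6 in the control libraries and 195.1, 233.2 and 194.9 in the treated ones. The groups did not overlap, control 1 being the highest of its group and treated 2 the highest of all. *GSTU5* was 1.51-fold higher (log2 0.60, SE 0.10, adjusted p = 0.00351 by edgeR). Its adjusted p stayed under 0.05 with any 1 library left out, but its fold went under the limit without control replicate 2 (log2 0.54), control replicate 3 (0.55) or treated replicate 2 (0.51).

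*GSTU3* (AT2G29470, chr2:12628422-12629640, minus strand, 2 coding exons) had the largest fold of the family. The level was low, at 3.37, 1.98 and 2.80 CPM in the control libraries against 4.45, 6.10 and 5.11 CPM in the treated ones. Every treated library lay above the highest control library, control 1. This is a 1.91-fold difference (log2 0.93, SE 0.20, adjusted p = 0.0128 by edgeR), which lost its call without control replicate 2 (adjusted p = 0.0597) or control replicate 3 (0.0636).

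*GSTU25* (AT1G17180, chr1:5872024-5873124, plus strand, 2 coding exons) and its neighbor *GSTU24* (AT1G17170, chr1:5869543-5870883, plus strand, 2 coding exons) encode enzymes known to conjugate the explosive trinitrotoluene. *GSTU25* gave 3.56, 2.80 and 3.40 CPM in the control libraries and 5.71, 4.50 and 5.31 CPM in the treated libraries. It was thus 1.60-fold higher without overlap (log2 0.68, SE 0.16, adjusted p = 0.0227 by edgeR), and the call ended without control replicate 2, control replicate 3, treated replicate 1 or treated replicate 3 (adjusted p from 0.0616 to 0.0988). *GSTU24* gave 14.2, 13.1 and 13.1 CPM in control and 16.3, 18.9 and 17.3 CPM in treated seedlings. Here too the lowest treated library was above the highest control library, with a log2 fold change of 0.38 (SE 0.10, adjusted p = 0.0285 by edgeR). Without control replicate 2, control replicate 3, treated replicate 2 or treated replicate 3 the adjusted p of *GSTU24* was between 0.0634 and 0.126.

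The smallest p of the family belonged to *GSTU8* (AT3G09270, chr3:2848183-2849686, minus strand, 2 coding exons), which stayed under the 1.5-fold limit. The control libraries had 17.8, 17.8 and 18.7 CPM and the treated libraries 27.5, 24.9 and 25.2 CPM. The spread within each group was small beside the gap between them, and the log2 fold change was 0.51 (SE 0.08, adjusted p = 0.00207 by edgeR). *GSTU27* (AT3G43800, chr3:15660770-15661987, plus strand, 2 coding exons) had 37.6, 35.5 and 36.8 CPM in control and 45.7, 50.1 and 44.8 CPM in treated seedlings. It rose by 0.35 on the log2 scale without overlap (SE 0.07, adjusted p = 0.00942 by edgeR), and without control replicate 2 its adjusted p was 0.0520.

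*GSTU7* (AT2G29420, chr2:12617936-12618899, minus strand, 2 coding exons) had 28.1, 26.9 and 33.5 CPM in the control libraries and 39.5, 36.2 and 39.9 CPM in the treated ones. Control 3 came nearest to the treated group without reaching it, and the log2 fold change was 0.38 (SE 0.09, adjusted p = 0.0226 by edgeR). *GSTU10* (AT1G74590, chr1:28023627-28024860, minus strand, 2 coding exons) had 11.1, 8.80 and 8.49 CPM against 13.3, 11.5 and 13.4 CPM. Its highest control and lowest treated libraries were close, and the log2 fold change was 0.45 (SE 0.12, adjusted p = 0.0423 by edgeR). *GSTU7* lost its call without control replicate 1, control replicate 2, treated replicate 1 or treated replicate 3 (adjusted p from 0.0572 to 0.106). *GSTU10* lost it without control replicate 2, control replicate 3, treated replicate 1 or treated replicate 3 (adjusted p from 0.117 to 0.202).

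**Figure D2:**
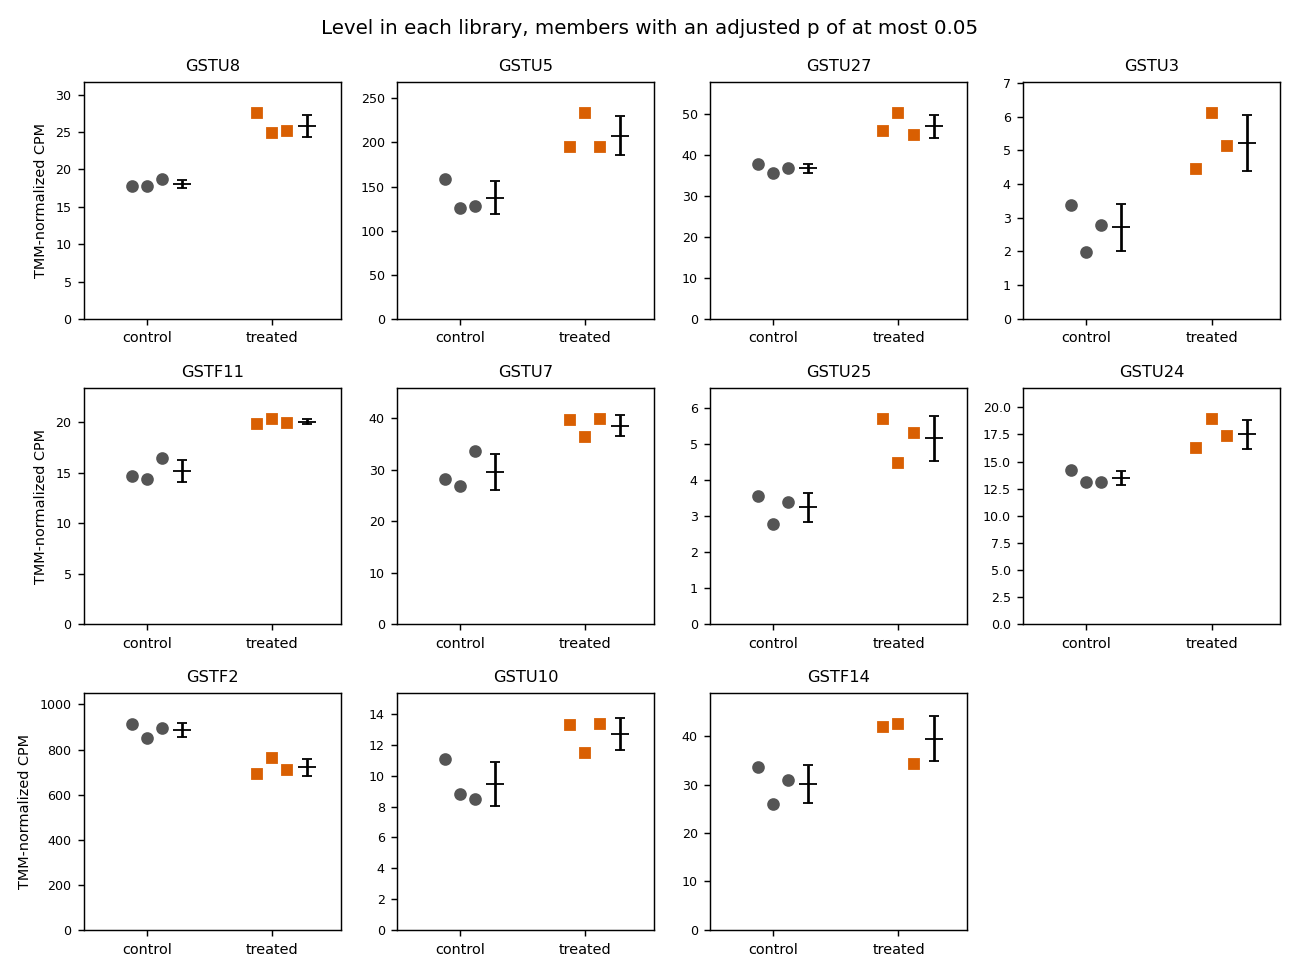
TMM-normalized CPM in each library for the 11 members with an adjusted p of at most 0.05, on axes that start at 0. Gray circles are control libraries, orange squares treated libraries, and bars the mean with its SD (n = 3 per group). In every panel the groups stand apart, with *GSTF2* the panel where the treated libraries lie below.

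*GSTU20* (AT1G78370, chr1:29484120-29485389, minus strand), linked to aliphatic glucosinolate synthesis and, under the name FIP1, to the jasmonate-conjugating enzyme JAR1, is the tau gene with the highest level. It had 494, 503 and 544 CPM in the control libraries and 571, 589 and 609 CPM in the treated ones. All treated libraries were higher, but the log2 fold change of 0.20 did not pass the test (SE 0.07, adjusted p = 0.125 by edgeR). *GSTU13* (AT1G27130), linked to indole glucosinolate products in defense, had 97.8, 102.6 and 98.4 CPM against 86.3, 86.3 and 102.8 CPM, which overlap (log2 fold change -0.12, adjusted p = 0.429 by edgeR). Just outside the threshold were *GSTU4* (log2 fold change 0.37, adjusted p = 0.0569) and *GSTU16* (0.33, adjusted p = 0.0607). The other 12 tau genes had log2 fold changes between -0.26 and 0.65 with an adjusted p of at least 0.110, 0.65 being that of *GSTU22*, a low gene whose control and treated libraries overlapped.

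In the phi class, 2 of 11 members rose and 1 fell, none of them as a DEG, where 5.10% of all genes tested rose and 4.52% fell. The class median of the log2 fold change was -0.04. *GSTF2* (AT4G02520, chr4:1110343-1112033, minus strand, 3 coding exons) encodes a protein that binds small defense and auxin-related ligands. It had 912, 851 and 893 CPM in the control libraries and 691, 762 and 711 CPM in the treated ones. Each treated library was below each control library, and *GSTF2* fell by 0.30 on the log2 scale (SE 0.08, adjusted p = 0.0307 by edgeR). The call held without treated replicate 2 and was lost without each of the other 5 libraries in turn, with an adjusted p between 0.0710 and 0.129.

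*GSTF2* overlaps its neighbor *TOC159*, a receptor of the chloroplast import machinery on the opposite strand, over 1442 bp. *TOC159* had 318 ± 25.6 CPM in control and 377 ± 33.9 CPM in treated seedlings (SD, n = 3), a log2 fold change of 0.25 that did not pass the test (adjusted p = 0.108 by edgeR). How the counting treated strand is not stated, so reads of the 2 genes cannot be told apart with certainty. The coding sequence of *GSTF2* is 94.5% identical to that of *GSTF3*, which had only 1.70 ± 0.175 CPM in control and 1.57 ± 0.145 CPM in treated seedlings.

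*GSTF11* (AT3G03190, chr3:734892-735987, plus strand, 3 coding exons) is linked to the glutathione step of aliphatic glucosinolate synthesis. It had 14.7, 14.4 and 16.4 CPM in control and 19.9, 20.4 and 19.95 CPM in treated seedlings, with the treated libraries close together and all higher. The log2 fold change was 0.39 (SE 0.09, adjusted p = 0.0156 by edgeR), and the call was lost without control replicate 2 (adjusted p = 0.0746) or treated replicate 1 (0.0524). Its whole length of 1096 bp overlaps *NAC045* on the opposite strand, which had 1.80 ± 0.374 and 1.71 ± 0.416 CPM. *GSTF14* (AT1G49860, chr1:18458526-18459969, plus strand, 3 coding exons) had 33.7, 25.9 and 30.9 CPM against 41.9, 42.5 and 34.2 CPM. Treated 3 was barely above control 1, the log2 fold change was 0.39 (SE 0.11, adjusted p = 0.0447 by edgeR), and the call was lost without control replicate 2, control replicate 3, treated replicate 1 or treated replicate 2 (adjusted p from 0.0830 to 0.174).

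*GSTF6* (AT1G02930, chr1:661088-662475, minus strand), whose enzyme conjugates glutathione to an indole intermediate of camalexin synthesis, did not pass the test. The libraries had 525, 428 and 426 CPM in control and 442, 466 and 433 CPM in treated seedlings, with control 1 the highest of the 6 and the others mixed. The log2 fold change was -0.04 (SE 0.09, adjusted p = 0.845 by edgeR) and 0.07 without control replicate 1. *GSTF6* and the next gene, *GSTF7*, are 94.7% identical in coding sequence, the closest pair among the members. The longest stretch they share without a difference is given because reads that lie inside it match both genes. It lies in coding exon 3 of 3, at chr1:661565-661680 in *GSTF6* and chr1:659088-659203 in *GSTF7* (both minus strand, 116 bases).
GSTF6 and GSTF7: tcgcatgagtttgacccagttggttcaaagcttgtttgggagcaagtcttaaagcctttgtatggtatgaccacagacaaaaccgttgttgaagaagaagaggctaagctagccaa

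The other abundant phi genes did not pass the test either. *GSTF9* (AT2G30860) had 1032, 1052 and 1158 CPM in the control and 1142, 1084 and 1247 CPM in the treated libraries (log2 fold change 0.10, adjusted p = 0.547 by edgeR). Its neighbor *GSTF10* (AT2G30870), also known as ERD13, had 587, 558 and 575 CPM against 569, 552 and 527 CPM (log2 fold change -0.06, adjusted p = 0.679 by edgeR). The groups overlapped in both genes. *GSTF8* (AT2G47730) had 238, 299 and 256 CPM in control and 212, 199.6 and 276 CPM in treated seedlings, also with overlap (log2 fold change -0.21, adjusted p = 0.344 by edgeR). *GSTF4* had the lowest log2 fold change of the family, -0.56, at a low level of 3.23 ± 0.836 against 2.13 ± 0.434 CPM, and did not pass the test (adjusted p = 0.170 by edgeR). *GSTF3*, *GSTF5* and *GSTF7* lay between -0.13 and 0.42.

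Outside the 2 large classes no member passed the test. *GSTZ1* (AT2G02390) had 45.5, 48.7 and 50.05 CPM in control and 54.5, 49.97 and 47.9 CPM in treated seedlings, which overlap (log2 fold change 0.08, adjusted p = 0.597 by edgeR). The lambda gene *GSTL1* was just outside the threshold, with 3.29 ± 0.430 CPM in control and 4.65 ± 0.343 CPM in treated seedlings (log2 fold change 0.51, adjusted p = 0.0693 by edgeR), and *GSTL2* had a log2 fold change of 0.13. The theta genes *GSTT1*, *GSTT2* and *GSTT3* lay between -0.08 and 0.02.

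The level of a gene can be compared with that of another only per length, for which CPM was divided by the kilobases of coding sequence. *GSTF9* was the highest member with a mean over the 6 libraries of 1727 CPM per kb (range 1592 to 1924), followed by *GSTF2* with 1257 (1081 to 1428) and *GSTF10* with 866 (814 to 906). The ranges of these 3 genes did not overlap. *GSTU20* (843 CPM per kb) and *GSTF6* (723) came next, and the ranges of *GSTF10* and *GSTU20*, and of *GSTU20* and *GSTF6*, overlapped. The lowest was *GSTF5* with 0.996 CPM per kb, so the means of the family spanned 1733-fold. The 10 genes that rose were spread over this order, from *GSTU5* at rank 8 (256 CPM per kb) to *GSTU3* (5.85 CPM per kb).

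**Figure D3:**
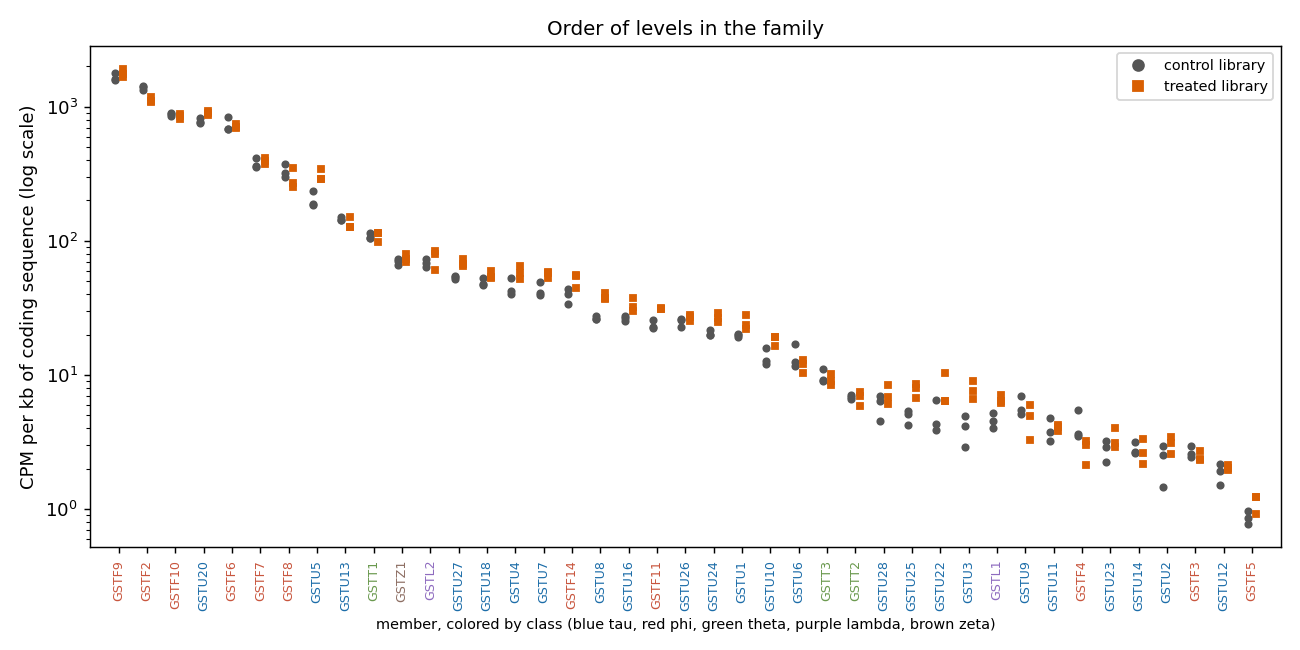
CPM per kb of coding sequence on a log axis for the 41 members, ordered by their mean over the 6 libraries, with 1 point per library (gray circles control, orange squares treated). Phi genes take 4 of the first 5 places, from 1727 CPM per kb for *GSTF9* to 723 for *GSTF6*.

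The summed level of all members was 4780 ± 110.0 CPM in control and 4855 ± 80.3 CPM in treated seedlings (SD, n = 3), a ratio of 1.02, with overlap between the groups. The phi sum was 3610, 3461 and 3586 CPM in the control libraries and 3371, 3392 and 3489 CPM in the treated ones, a ratio of 0.962 with overlap. The tau sum was 1016, 974 and 1029 CPM in control and 1169, 1232 and 1221 CPM in treated seedlings, a ratio of 1.20 without overlap. Thus the share of the tau members in the CPM of all members was 21.1% in control and 24.9% in treated seedlings. That of the phi members was 74.3% and 70.4%. Transferase genes outside the search words are not in these sums. Among these, *GSTU19* had a mean of 467 CPM in control and 504 CPM in treated seedlings, and *GSTL3* 210 and 209 CPM. The sums are descriptions and were not tested.

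A few genes made most of these differences. Of the 201 CPM by which the mean tau sum was higher, 146 CPM came from *GSTU5* and *GSTU20*, and 54.7 CPM from the other 22 tau genes. On the phi side the mean of *GSTF2* differed by -165 CPM and that of *GSTF9* by 76.9 CPM.

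**Figure D4:**
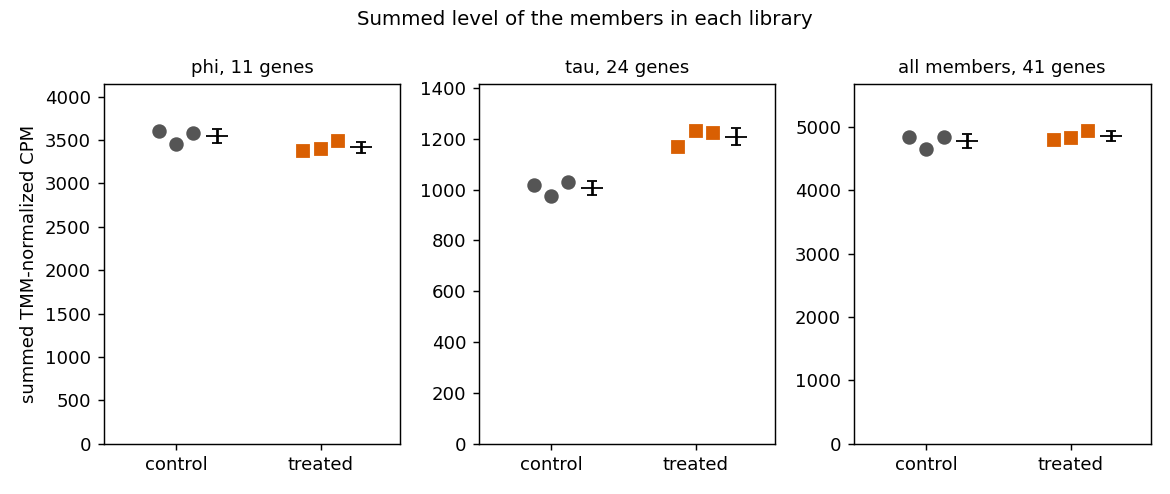
Summed TMM-normalized CPM of the phi genes, the tau genes and all 41 members in each library, on axes that start at 0, with the mean and SD (n = 3 per group). The treated libraries lie above the control libraries in the tau panel (1169 to 1232 against 974 to 1029 CPM) and overlap with them in the other panels.

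Of the 10 genes that rose, 5 lie in tandem clusters, in the row of *GSTU1* to *GSTU7* on chromosome 2 (chr2:12617936-12632538, minus strand) and in the row of *GSTU24* to *GSTU26* on chromosome 1 (chr1:5869543-5876620, plus strand). In the first row 3 of 7 genes rose (*GSTU3*, *GSTU5* and *GSTU7*), where 5.10% of all genes tested did. *GSTU6* alone of this row had a log2 fold change below 0 (-0.21, adjusted p = 0.443 by edgeR). Neighbors there are similar in coding sequence, with 85.9% identity for *GSTU1* and *GSTU2*, 83.5% for *GSTU5* and *GSTU6* and 81.9% for *GSTU3* and *GSTU4*, so the assignment of reads to single genes of the row is less certain. With its counts added up, the row had 253, 204.5 and 215 CPM in control and 303, 348 and 299 CPM in treated seedlings. The groups did not overlap, and the row rose as a unit by 0.50 on the log2 scale (SE 0.09, adjusted p = 0.00552 by edgeR), under the 1.5-fold limit. *GSTU5* made up 61.3% of the row in control and 65.5% in treated seedlings, and the other 6 genes together had 93.9, 79.1 and 87.4 CPM against 108, 115 and 104.5 CPM, also without overlap.

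The summed row of *GSTU24* to *GSTU26* had 33.2 ± 0.580 CPM in control and 40.5 ± 1.04 CPM in treated seedlings (SD, n = 3) and rose by 0.28 on the log2 scale (SE 0.07, adjusted p = 0.0204 by edgeR). *GSTU24* and *GSTU25* are 80.8% identical in coding sequence. The other 6 clusters did not pass the test when summed: the highest log2 fold change was 0.20 for *GSTU20*, *GSTU22* and *GSTU23* (adjusted p = 0.118 by edgeR) and the lowest -0.12 for *GSTU13* and *GSTU14* (adjusted p = 0.426). For *GSTF4* to *GSTF7*, where the near-identical *GSTF6* and *GSTF7* lie, it was -0.01 (adjusted p = 0.980). In all, 17 of the 41 members have another member with at least 80% identity in coding sequence, and 7 have one with at least 90%.

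**Figure D5:**
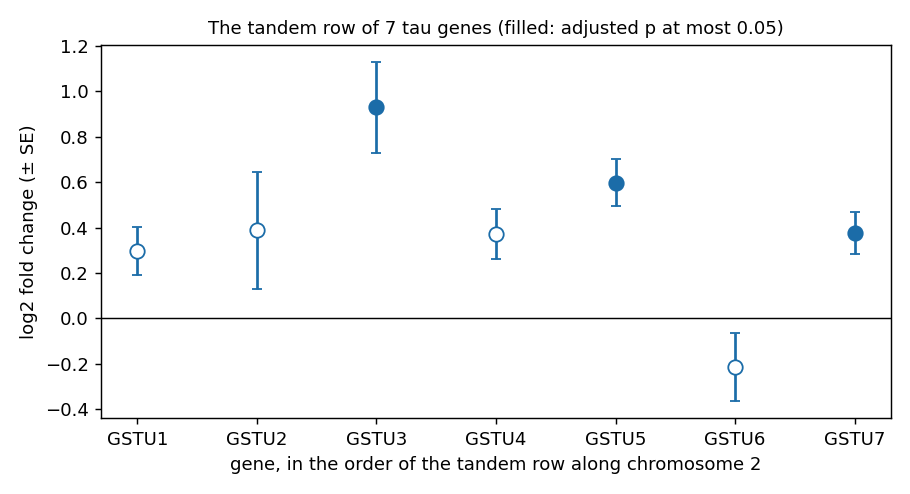
Log2 fold change with its standard error for the 7 tau genes of the row on chromosome 2, in their order along the chromosome from the highest to the lowest coordinate. Filled points have an adjusted p of at most 0.05: *GSTU3* (0.93), *GSTU5* (0.60) and *GSTU7* (0.38), with unfilled neighbors between them.

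The table holds 12 more genes whose gene type entry contains the words glutathione S-transferase but whose short description lacks the words searched for. They were not counted as members. *GSTU17* (AT1G10370, listed as *ERD9*), a negative regulator of drought and salt tolerance, is one of them and overlaps *GSTU18* by 71 bp on the same strand. It had 11.7 ± 1.03 CPM in control and 21.8 ± 2.91 CPM in treated seedlings and was a DEG (log2 fold change 0.88, adjusted p = 0.000619 by edgeR), whereas *GSTU18* had a log2 fold change of 0.17. *GSTU19* (AT1G78380), an abundant enzyme with broad activity on foreign compounds, had 467 ± 23.1 and 504 ± 12.0 CPM (log2 fold change 0.11, adjusted p = 0.413 by edgeR). *GSTU17* was named after its values were seen, and it was the single DEG of the 12. The other 11 did not pass the test, and 8 of the 12 had a log2 fold change below 0 (median -0.06).

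Around the family, the genes that make, recycle, move and use glutathione were counted by the same test, by which 5.10% of all genes rose and 4.52% fell. Of 7 genes of glutathione synthesis and reduction, 1 rose and none fell, with a median log2 fold change of 0.10. It was *GR1*, a glutathione reductase, with 142 ± 8.97 CPM in control and 192 ± 12.0 CPM in treated seedlings (SD, n = 3; log2 fold change 0.44, adjusted p = 0.00371 by edgeR). Of 10 genes of glutathione and conjugate breakdown, *GGCT2;1*, a gamma-glutamyl cyclotransferase, rose (log2 fold change 0.56, adjusted p = 0.00890) and *PCS1*, the phytochelatin synthase, fell by 0.39 on the log2 scale (adjusted p = 0.00981). Of 22 genes of glutathione peroxidases and the ascorbate cycle, 2 rose, *GPX7* (0.36) and *MDAR4* (0.25), and none fell. None of the genes in these 3 lists was a DEG.

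Of the 15 ABCC transporters, 5 rose and none fell, none of them as a DEG, with a median of 0.21 (all genes tested, 5.10% higher, 4.52% lower and a median of -0.005). *ABCC2*, a vacuolar transporter of glutathione conjugates and phytochelatins, had 87.6 ± 5.82 CPM in control and 122 ± 6.29 CPM in treated seedlings (log2 fold change 0.48, adjusted p = 0.00166 by edgeR). *ABCC8* (0.45, adjusted p = 0.00103) and *ABCC10* (0.54, adjusted p = 0.00185) rose likewise, and *ABCC1* and *ABCC4* by 0.27 and 0.31. Of 13 TGA factors and their partners, none rose and 1 fell, the NAC gene *ANAC102* (log2 fold change -0.27, adjusted p = 0.0262 by edgeR), and *TGA1* to *TGA7* lay between -0.11 and 0.13.

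Among 12 genes listed as other detoxification genes, 4 rose, 3 of them as DEGs, and none fell, where 5.10% of all genes tested rose and 1.73% were higher DEGs. The DEGs were *DOX1*, a fatty acid dioxygenase (log2 fold change 0.86), *ABCG40*, an importer of abscisic acid (0.80), and *UGT74E2*, a glucosyltransferase of indole-butyric acid (0.67), and the fourth was *AER* (0.41). The rest of the list did not pass the test, from *OPR1* (-0.15) to *UGT73B4* (0.45), with *CYP81D11* at 0.01 and *CYP81D8* at 0.05. Among 12 enzymes that stand next to the glutathione step in glucosinolate and camalexin synthesis, 6 rose, 2 of them as DEGs, and none fell, with a median of 0.27. *CYP71A12* (0.86) and *CYP71A13* (0.80), which make indole acetonitrile on the way to camalexin, were DEGs. The study placed camalexin biosynthesis among the categories of its downregulated genes, which is the other direction. *CYP79F1* (0.51), *UGT74C1* (0.48), *CYP83A1* (0.28) and *SUR1* (0.26) rose under the 1.5-fold limit. The rest of these enzymes did not pass the test, from *CYP79B3* (-0.10) to *CYP79F2* (0.32). Among them were *PAD3* (0.185), *CYP79B2* (0.14) and *CYP83B1* (-0.02).

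The markers of tissues and handling were read because the samples are whole plants taken out of soil, where fewer cells of a type and less RNA per cell cannot be told apart. Over all genes tested, 5.10% rose and 4.52% fell. Of 6 root markers, 2 rose (*PRP3* by 1.24 and *COBL9* by 0.78 on the log2 scale) and none fell. The summed level of the root markers was 840 to 889 CPM in control and 975 to 1015 CPM in treated libraries. Most of that sum was *PYK10*, a beta-glucosidase gene that did not pass the test (823 ± 17.4 and 952 ± 30.1 CPM, SD, n = 3, adjusted p = 0.103 by edgeR). The other 5 root markers summed to 34.3 to 48.6 CPM in control and 43.0 to 57.4 CPM in treated libraries, which overlap. Most of this smaller sum was *TIP2;3* (29.2 ± 5.48 and 26.2 ± 5.76 CPM, log2 fold change -0.16). In 5 of the 6 root markers every treated library lay above every control library, where 14.5% of all genes tested showed the same. The median log2 fold change of the 6 was 0.58. *NRT2.1* (0.94, adjusted p = 0.0564 by edgeR) and *RHD2* (0.39, adjusted p = 0.0613) were just outside the threshold. Of 5 leaf markers 1 rose, *CA1* (0.55), and their summed level overlapped, at 16189 to 21558 CPM against 16557 to 24377 CPM. Of 14 genes known to respond rapidly to handling, 13 fell and none rose, and their summed level was 1240 to 1310 CPM in control and 694 to 731 CPM in treated libraries. The study reported immune, jasmonic acid and ethylene responses among its downregulated genes, and a response to handling cannot be told apart from these here. None of these markers was at 0, and none of the 4 flower and 4 seed markers is among the genes of the table. The part of root share or handling in the values of the transferases was not tested.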

How the data were processed

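Whole-seedling RNA from 3 Control and 3 Treated samples was sequenced. Per the labels and the study's methods, the authors used Trimmomatic 0.36 for trimming, HISAT2 2.1.0 for alignment (TAIR10) and HTSeq-count for gene counts. The deposited counts were used as given. The authors also deposited CPM, scaled to each library's total, which was not used. The authors' deposited log2 fold changes, average log2 CPM, p-values and FDR hold their own edgeR comparison and were not used. The labels name both a TruSeq and a directional library kit, and no strand setting was found. Each gene of the table reaches a CPM of 1 in 2 or more libraries, and lower genes were not analysed here. No count column was without a sample (0), and 0 rows named no gene.

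The test was run with edgeR 4.0.16 in R 4.3.3 (filterByExpr, TMM, quasi-likelihood test, no covariate, common biological coefficient of variation 0.0792). The fit used all genes, with Benjamini-Hochberg adjustment over 19615 of them. The limits on adjusted p and fold were 0.05 and 1.5. Alternatives used DESeq2 1.42.0 and limma 3.58.1. The main fit was also run on data simulated from its own means, library sizes and common dispersion, with results not given here. Python 3.11.15, pandas 2.3.3, numpy 2.4.6, Biopython 1.88 and matplotlib 3.10.9 were used for the rest. Coding lengths (the longest coding model), positions and sequences came from RefSeq's TAIR10.1 annotation and genome, in which all 41 members were found by locus, and the deposited table holds no coordinates. The theta genes *GSTT2* and *GSTT3* have long coding models, which lowers their CPM per kb.

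The members and gene lists were chosen with earlier results of these data known. Per-library values are given for members past the adjusted p, the 5 highest per kb and members with a role noted from general knowledge. From each list the called genes are named, or else up to 2 with the smallest p, and further genes of a list were named after their values were seen.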

Additional observations from a re-analysis of the deposited data

How the results depend on the processing

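The 10 higher and 1 lower members by the adjusted p alone were also found with DESeq2 size factors, upper quartile factors, no filter, a CPM of at least 1 in 3 libraries and limma-voom. Over these settings, library size alone, the DESeq2 Wald test and edgeR's likelihood ratio test, 9 to 13 members were higher and 1 was lower, and 3 members reached both limits in each. *GSTU8* and *GSTU5* passed the adjusted p in all 15 alternatives that keep single genes. With a replicate block the count of DEGs was 3, and by the adjusted p alone 6 members were higher and 0 lower. Same-numbered libraries deviated from their group means with correlations of -0.16, -0.25 and 0.13, and differently numbered ones with -0.29 to 0.38. With 3 libraries per group, a pairing by number was neither shown nor excluded. With 1 library left out, the higher DEGs were 0 to 3 (0 without control replicate 2 or control replicate 3), those by the adjusted p alone 2 to 10, and the median log2 fold change 0.12 to 0.24. With the tandem clusters summed, or with a fold of at least 2, 0 members were higher DEGs, by edgeR's quasi-likelihood test. *GSTF6* was -0.04 and ranged from -0.092 to 0.066 with 1 library left out, 0.066 without control replicate 1. The fits with 1 library left out also have fewer samples, and the cause of these changes was not tested. With counts as low as 8 per library, small changes of the low members, such as *GSTF5* (SE 0.30), were not detectable at this depth.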
